A study of Mus musculus with 9 samples.

Results

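Collagen chains are the gene products that assemble, 3 at a time, into the triple helices of the extracellular matrix. The set described here holds every protein-coding gene whose symbol has the form Col, a type number, a and a chain number, which gave 44 genes of 27 collagen types among the 54532 genes of the table. By the way their products assemble, 11 are fibrillar, 9 form networks, 6 form beaded filaments and 18 belong to other classes. All 9 kidney samples came from 4-month-old male C57BL/6J mice (c57BL/6j in the labels), 3 in each of 3 groups. Ground controls (GC1 to GC3) were not unloaded and had no treatment. Hindlimb unloading lifts the hindquarters off the cage floor and is used as a model of weightlessness and disuse, and these mice were given vehicle (HU1 to HU3). The third group was unloaded and given 4-PBA, 4-phenylbutyrate, a small chemical chaperone used against stress of the endoplasmic reticulum, at 100 mg per kg per day into the abdominal cavity (PBA1 to PBA3). The controls had no vehicle injections, so unloading and vehicle cannot be told apart, and the length of unloading and the part of the kidney sampled are not stated.

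In the kidney, collagens of 2 kinds of matrix matter most. Type IV chains form the sheet-like network of basement membranes, under every tubule and vessel and between podocytes and endothelium in the glomerular filter. Fibrillar types I, III and V, with the type VI filaments and the fibril-associated chains around them, make up the thin interstitial matrix, which is made mainly by fibroblasts and pericytes and thickens in fibrosis.

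Levels are given as FPKM, the number of reads per gene scaled by gene length and by library, so chains can be compared with each other. The library constant in these values does not equal the total of reads. The library size it stands for was 1.49, 1.58 and 0.953 times the reads counted in controls, 0.732, 0.41 and 0.81 times in unloaded kidneys and 1.71, 1.54 and 0.711 times with 4-PBA. A ratio of FPKM between an unloaded library and a control is therefore larger than the ratio per counted read. Differences are given in log2(FPKM + 1), which understates the change of low genes, with the standard error of the fit. Tests are limma's, fitted over 12642 genes with at least 1 FPKM in at least 3 libraries, and adjusted by Benjamini-Hochberg over these genes; rose and fell are used below an adjusted p of 0.05. Libraries held 7595631 to 15141784 reads assigned to genes. The share of reads from mitochondrial genes was 63.7% to 79.3% in the unloaded group, 14.8% to 49.7% in the controls, and 15.2%, 13.7% and 67.1% in PBA1, PBA2 and PBA3. GC3, at 49.7%, and PBA3 therefore stood apart from their groups, and results are given with and without them where that matters. The labels call the samples replicates of a group, and p-values measure the spread between these samples, which may in part be technical.

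Collagen RNA was several-fold more abundant in the unloaded kidneys than in the controls. The summed level of the 44 chains in the 3 controls, in order of sample number, was 85.1, 125 and 186 FPKM. In the unloaded libraries it was 367, 1174 and 964 FPKM. Lists of values below keep that order. Every unloaded library lay above every control. With 4-PBA the sums were 137, 80.4 and 649 FPKM, so PBA1 lay inside the control range, PBA2 just below it and PBA3 between HU1 and HU3. Group means were 132 ± 50.8, 835 ± 419 and 289 ± 313 FPKM (SD, n = 3 each). The mean log2 sum was 2.57 higher in unloaded than in control kidneys (exact permutation test, two-sided, p = 0.1, the smallest that 3 against 3 can give), 1.95 lower with 4-PBA than without (a difference of -1.95, p = 0.2, same test) and 0.618 higher with 4-PBA than in controls (p = 0.7, same test). Scaled to equal total reads instead, the first 2 differences were 1.5 (exact permutation p = 0.1) and -0.971 (exact permutation p = 0.2). As the tissue was sequenced in bulk, more collagen-making cells and more collagen RNA per cell cannot be told apart here.

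**Figure D1:**
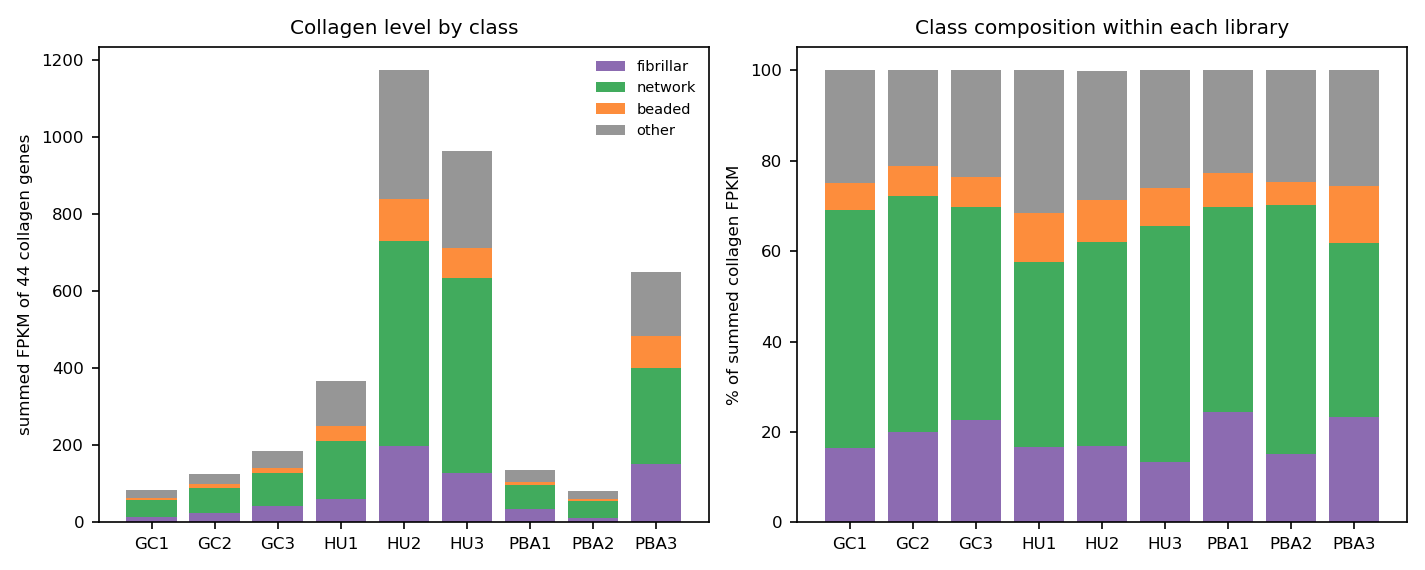
Summed FPKM of the 44 collagen genes (left) and the percentage of that sum in each class (right) for each of the 9 libraries, stacked as fibrillar, network, beaded and other chains. The sum ranged from 80.4 FPKM in PBA2 to 1174 FPKM in HU2, while network chains made up 38.3% to 54.9% of it in every library.

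Network chains were the largest class in every library. They held 52.8%, 52.2% and 47.0% of the collagen sum in the controls and 41.1%, 45.2% and 52.3% in the unloaded libraries, a mean difference of -4.41 percentage points (exact permutation test, two-sided, p = 0.3). Fibrillar chains held 16.4%, 20.0% and 22.7% in the controls and 16.6%, 16.8% and 13.3% in the unloaded libraries, a difference of -4.11 points (exact permutation test, p = 0.3). Beaded chains held 5.87% to 6.73% in the controls and 8.28% to 10.8% in the unloaded libraries, and the chains of other classes 21.2% to 25.0% and 26.1% to 31.5%, both without overlap. The groups overlapped for the network and fibrillar shares. With 4-PBA the network share was 45.3%, 54.9% and 38.3% and the fibrillar share 24.5%, 15.2% and 23.4%, with the lowest network share in PBA3. Against the unloaded group the fibrillar share differed by 5.44 points (exact permutation test, p = 0.3) and the network share by -0.0442 points (exact permutation test, p = 1). Against the controls these differences were 1.33 points (exact permutation test, p = 0.7) and -4.45 points (exact permutation test, p = 0.6).

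Of the 44 members, 22 passed the filter on low values. Of these, 18 would also have passed without the unloaded libraries, and the other 4 (Col5a3, Col7a1, Col8a2 and Col26a1) were not called in any comparison. Between unloaded and control kidneys 6 of the 22 passed the test, 5 rising and 1 falling, where 10.2% of all tested genes did (5.32% higher, 4.90% lower). Col14a1, Col15a1, Col4a1, Col4a2 and Col5a1 rose and Col4a3 fell. At an unadjusted p under 0.05 there were 15 of 22 (29.8% of all tested genes), and 19 of 22 differences were positive. The median difference over the tested chains was 2.19, against -0.03 over all tested genes. With no filter, the median over all 44 members was 0.46, against 0 over all genes, and 33 of 44 were positive. Without overlap between groups, 13 of 22 were higher (18.3% of all tested genes) and 2 lower (19.4%). The number of calls varied between 0 and 14 as single libraries were left out. It was 0 without any single control or without HU3, 1 without HU2, 2 without PBA1 and 14 without PBA3 (18.7% of all tested genes). Calls over all tested genes fell too, from 1292 to 69, 230 and 126 without GC1, GC2 and GC3. They were 669 without HU3, 1033 without HU2 and 874 without PBA1. PBA1 and PBA3 do not enter this difference, and its median stayed 2.19 without either. Leaving them out changed only the estimate of spread, which all libraries share. The standard error of Col14a1 was 0.79 with PBA3 and 0.43 without it. The number of chains called was also 0 with no filter on low values, where 36 of all 54532 genes were called. It was 0 as well with the mitochondrial share as a covariate, where 99 of all 12642 tested genes were called. The median of the 22 was then 0.23 and 12 were positive. The mitochondrial share did not overlap between unloaded and control libraries, which limits what this fit can separate. Voom on the recovered reads called 12 (10.5% of all tested genes). Scaling to equal total reads gave 4 higher and 3 lower, where 303 of all 12642 tested genes were called higher and 2036 lower. That scaling moved the median of all genes to -0.78.

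**Figure D2:**
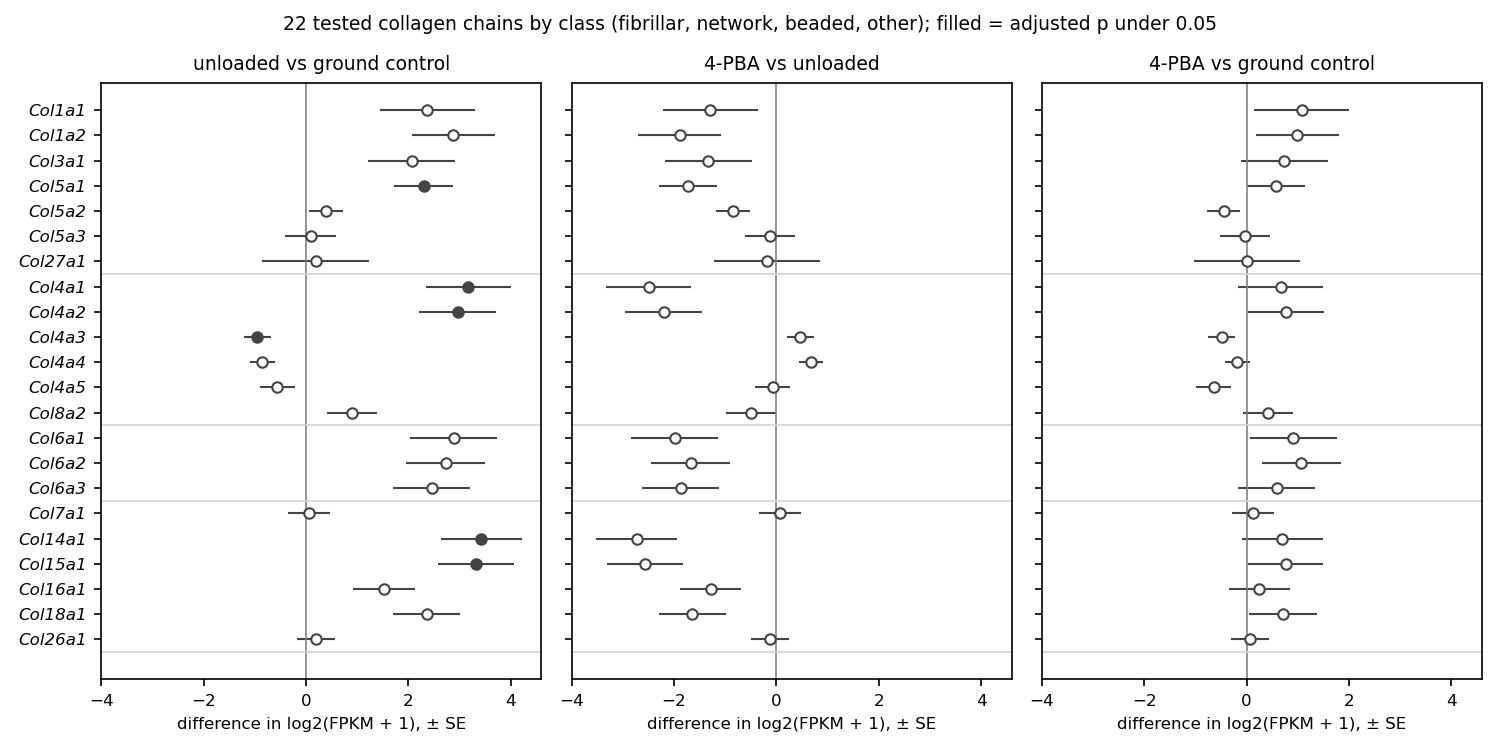
Difference in log2(FPKM + 1) with its standard error for the 22 tested collagen chains in each of the 3 comparisons, grouped by class; filled points passed an adjusted p of 0.05. Filled points appear only for unloaded against control, for 5 chains to the right of 0 and for Col4a3 to the left, and the other 2 comparisons have none.

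The network class holds the 6 type IV chains, which lie in the genome as 3 head-to-head pairs. Col4a1 and Col4a2 encode the chains found in nearly all basement membranes. Col4a3, Col4a4 and Col4a5 encode the trimer of the mature glomerular basement membrane, which podocytes make and which is defective in Alport syndrome. Col4a6 joins Col4a5 in the capsule around the glomerulus and in some tubules. The stretch between the starts of each pair is shown because the pairs share it and the results differ between pairs. The coordinates are mm10, the sequences are RefSeq's (GRCm38.p6 table), and capitals mark a GC box, GGGCGG or its reverse complement CCGCCC. The first run is the overlap of the Col4a1 and Col4a2 gene models, on the plus strand at chr8:11312805-11312826, where the first exons of both genes lie. The second is the whole gap between Col4a4 and Col4a3, on the plus strand at chr1:82586850-82586920, in no exon of either. The last is the 250 bases before Col4a6, on the minus strand at chrX:141474077-141474326, part of the 1308 bases that separate it from Col4a5.
Col4a1 and Col4a2: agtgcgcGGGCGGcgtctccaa
Col4a4 and Col4a3: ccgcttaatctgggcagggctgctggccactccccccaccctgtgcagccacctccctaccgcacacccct
Col4a6: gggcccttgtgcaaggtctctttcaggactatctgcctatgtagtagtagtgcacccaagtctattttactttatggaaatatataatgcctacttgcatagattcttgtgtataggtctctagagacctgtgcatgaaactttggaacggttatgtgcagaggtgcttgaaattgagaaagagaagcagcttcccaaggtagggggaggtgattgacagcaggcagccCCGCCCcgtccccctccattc

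The Col4a1 and Col4a2 starts overlap by 22 bases, with a GC box from base 8 of that overlap. The Col4a3 and Col4a4 starts are 71 bases apart and hold none of the 3 motifs searched on both strands. These were the GC box (GGGCGG), the CCAAT box named for its own letters, and the TATA box, spelled TATAAA in this search. The stretch before Col4a6 holds 1 GC box, from base 230 of the 250. In windows from 250 bases before to 50 bases after a start, GGGCGG was present in 35.7% of 32851 windows and in 23 of the 38 windows of the 35 members that had one (60.5%). CCAAT was present in 37.4% and 34.2%, and TATAAA in 13.6% and 13.2%. A match describes the letters only, and the data hold no measurement of binding.

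Col4a1 (ENSMUSG00000031502, chromosome 8, 11198423 to 11312826) had the highest mean level of any collagen chain. It measured 11.2, 21.7 and 32.2 FPKM in the 3 controls and 80.9, 288 and 281 FPKM in the 3 unloaded libraries, with no overlap. Its level was 20.1, 12.6 and 131 FPKM with 4-PBA, where PBA1 and PBA2 lay inside the control range and PBA3 lay between HU1 and HU3. Col4a1 rose with unloading by 3.17 ± 0.83 (limma adjusted p = 0.0414).

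Col4a2 (ENSMUSG00000031503, chromosome 8, 11312805 to 11449287) followed the same order of libraries within each group. It measured 10.6, 18 and 24.6 FPKM in controls, 56.2, 225 and 209 FPKM in unloaded kidneys and 19.4, 13.2 and 96.2 FPKM with 4-PBA. It rose with unloading by 2.97 ± 0.75 (limma adjusted p = 0.0377), a ratio of means of 9.21. The ratio of Col4a1 to Col4a2 was 0.954 to 1.44 over all 9 libraries, while their levels spanned more than an order of magnitude. Together they made up 25.7%, 31.7% and 30.6% of the collagen sum in controls, 37.3%, 43.7% and 50.8% in unloaded kidneys and 28.8%, 32.1% and 34.9% with 4-PBA.

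Both chains of the Col4a3 and Col4a4 pair lay lower in unloaded kidneys than in controls, though only Col4a3 passed. Col4a3 (ENSMUSG00000079465, chromosome 1, 82586921 to 82722059) measured 8.05, 10.4 and 9.80 FPKM in controls, 3.43, 5.54 and 4.29 FPKM in unloaded kidneys and 8.35, 5.67 and 5.50 FPKM with 4-PBA. Every unloaded library was below every control, and in the 4-PBA group PBA1 lay in the control range and PBA3 just under HU2. Col4a3 fell by 0.95 ± 0.26 on the log2 scale in unloaded kidneys (a difference of -0.95, limma adjusted p = 0.0471), to 0.469 of the control mean. Of its exon bases, 5.65% overlap an antisense gene, and whether counting used strand is not stated. Its limma adjusted p was 0.0845 with the sample number as a block.

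Col4a4 (ENSMUSG00000067158, chromosome 1, 82448423 to 82586849) measured 10.9, 10.3 and 13.8 FPKM in controls, 4.50, 6.63 and 7.07 FPKM in unloaded kidneys and 11, 9.99 and 9.49 FPKM with 4-PBA. The unloaded libraries lay below all others, controls and 4-PBA alike. The differences were -0.85 ± 0.24 for unloaded against control (limma adjusted p = 0.0552) and 0.68 ± 0.24 for 4-PBA against unloaded (limma adjusted p = 0.169), and neither passed. Col4a5 (ENSMUSG00000031274, chromosome X, 141475385 to 141689234), partner of both, measured 3.53, 4.37 and 5.98 FPKM in controls, 4.69, 2.97 and 1.34 FPKM in unloaded kidneys and 2.71, 2.47 and 2.51 FPKM with 4-PBA. HU1 lay inside the control range, and all 4-PBA libraries lay below it. Its differences were -0.56 ± 0.34 for unloaded against control (limma adjusted p = 0.287) and -0.64 ± 0.34 for 4-PBA against control (limma adjusted p = 1).

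**Figure D3:**
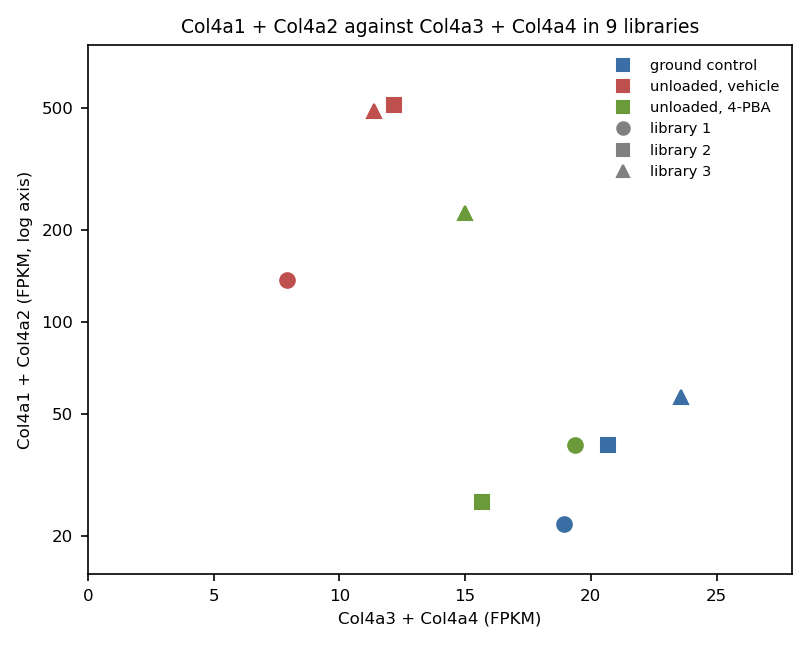
Summed FPKM of Col4a1 and Col4a2 (vertical, log axis) against summed FPKM of Col4a3 and Col4a4 (horizontal, linear axis), 1 point per library, coloured by group with a symbol per library number. The 3 unloaded libraries sit at the upper left, apart from the 3 controls and from PBA1 and PBA2 at the lower right, and PBA3 lies between, at a ratio of 15.1.

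The balance between the pairs does not depend on how libraries are scaled. The sum of Col4a1 and Col4a2 over the sum of Col4a3 and Col4a4 was 1.16, 1.92 and 2.41 in controls and 17.3, 42.1 and 43.1 in unloaded kidneys. It was 2.04, 1.65 and 15.1 with 4-PBA. PBA1 and PBA2 lay inside the control range, and PBA3 just under HU1. This ratio was chosen after its values were seen and is given without a test. The ratio of Col4a3 to Col4a4 within its pair was 0.567 to 1.01 over the 9 libraries.

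Col4a6 (ENSMUSG00000031273) had 30, 47 and 25 reads in controls, 0, 13 and 0 in unloaded kidneys and 55, 14 and 36 with 4-PBA, at most 0.724 FPKM, and was not tested. HU1 and HU3 held no read, and HU2 lay at 0.524 FPKM, above every control. The remaining network chains were low. Col8a2, of the hexagonal network under endothelia, had 0.0458 to 0.448 FPKM in controls and 0.427 to 2.22 FPKM in unloaded kidneys (difference 0.90 ± 0.49, limma adjusted p = 0.248). Col8a1 had at most 72 reads in a library and Col10a1, a chain of hypertrophic cartilage, at most 11.

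Among the fibrillar chains 7 of 11 were tested. Their median difference between unloaded and control kidneys was 2.07, all 7 were positive, and 1, Col5a1, rose. Col5a1 encodes the chain of type V collagen that helps to start fibrils and limit their width. Col5a1 (ENSMUSG00000026837, chromosome 2, 27886425 to 28039514) measured 0.811, 1.24 and 1.98 FPKM in controls, 4.58, 18.4 and 12.4 FPKM in unloaded kidneys and 1.5, 1.03 and 6.86 FPKM with 4-PBA. Its unloaded libraries were all higher than its controls, and the difference was 2.30 ± 0.57 (limma adjusted p = 0.0364).

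Types I and III form the main interstitial fibrils. Col1a1 (ENSMUSG00000001506, chromosome 11, 94936224 to 94953042) measured 1.61, 6.24 and 8.77 FPKM in controls, 13.7, 48.4 and 34.1 FPKM in unloaded kidneys and 11.5, 1.89 and 47.0 FPKM with 4-PBA. PBA3 was close to the highest unloaded library and PBA2 close to the lowest control. The unloaded group lay above the controls without overlap, but the difference of 2.37 ± 0.93 did not pass (limma adjusted p = 0.124). Col1a2 (ENSMUSG00000029661, chromosome 6, 4504814 to 4541544), the partner in the type I trimer, measured 2.41, 6.09 and 6.74 FPKM in controls, 26.2, 60.0 and 43.8 FPKM in unloaded kidneys and 9.66, 2.10 and 43.2 FPKM with 4-PBA. Again the unloaded group did not overlap the controls, with a difference of 2.88 ± 0.81 (limma adjusted p = 0.0527). The ratio of Col1a1 to Col1a2 was 0.667 to 1.30 in controls, 0.522 to 0.806 in unloaded kidneys and 0.902 to 1.19 with 4-PBA.

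Col3a1 (ENSMUSG00000026043, chromosome 1, 45311538 to 45349706) measured 1.49, 6.46 and 6.41 FPKM in controls, 9.95, 28.3 and 30.8 FPKM in unloaded kidneys and 7.47, 1.43 and 30.3 FPKM with 4-PBA. GC1 and PBA2 were the lowest libraries for Col1a1, Col1a2 and Col3a1 alike. The Col3a1 difference was 2.07 ± 0.85 (limma adjusted p = 0.139). Fitted on the 6 unloaded and control libraries alone, limma called Col1a1 (adjusted p = 0.0393), Col1a2 (adjusted p = 0.00714) and Col3a1 (adjusted p = 0.0484), all higher, and 13 of the 22 chains in total, where it called 13.9% of all tested genes.

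The other tested fibrillar chains overlapped between unloaded and control kidneys. Col5a2, which pairs with Col5a1, had 1.92 to 4.29 FPKM in controls and 2.57 to 5.02 FPKM in unloaded kidneys (difference 0.39 ± 0.33). Col5a3 had 0.815, 0.717 and 1.56 FPKM in controls and 0, 2.78 and 1.52 FPKM in unloaded kidneys (0.09 ± 0.49). Col27a1, known from cartilage, stood out by single libraries, with 12.0 FPKM in GC3, 34.0 FPKM in HU2 and 19.9 FPKM in PBA3 against 1.69 to 4.61 FPKM in the other 6 (0.19 ± 1.04). Col2a1, Col11a1, Col11a2 and Col24a1, mostly of cartilage and bone, had at most 77 reads in a library. Col11a2 had 10, 23 and 2 reads in controls and none in any unloaded library, where 3 reads would be 0.0647 to 0.141 FPKM, against 0.0267 to 0.141 FPKM in controls.

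The 3 tested beaded chains had differences of 2.46 to 2.89 between unloaded and control kidneys, and none passed. Type VI chains assemble from Col6a1, Col6a2 and a longer chain, here mainly Col6a3, into the fine filaments around cells and basement membranes. Col6a1 (ENSMUSG00000001119, chromosome 10, 76708792 to 76726168) measured 2.65, 4.79 and 7.26 FPKM in controls, 25.8, 61.8 and 41.6 FPKM in unloaded kidneys and 5.93, 2.25 and 50.8 FPKM with 4-PBA. The unloaded libraries were all above the controls, PBA3 lay among them, and the difference was 2.89 ± 0.85 (limma adjusted p = 0.0596). Col6a2 (ENSMUSG00000020241, chromosome 10, 76595762 to 76623630) measured 0.753, 1.63 and 1.28 FPKM in controls, 7.24, 22 and 15.4 FPKM in unloaded kidneys and 2.34, 0.581 and 17.4 FPKM with 4-PBA. Its unloaded libraries did not overlap the controls, and its difference was 2.73 ± 0.77 (limma adjusted p = 0.0516).

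Col6a3 (ENSMUSG00000048126, chromosome 1, 90765923 to 90843971) measured 1.34, 1.25 and 3.11 FPKM in controls, 5.54, 23.3 and 21.9 FPKM in unloaded kidneys and 1.5, 1.07 and 13.4 FPKM with 4-PBA. Its difference was 2.46 ± 0.75 (limma adjusted p = 0.0647), again without overlap between unloaded and control. All 3 chains passed in the fit of 6 libraries, with adjusted p of 0.0064 for Col6a1, 0.00761 for Col6a2 and 0.0251 for Col6a3 in limma. The alternative long chains Col6a4, Col6a5 and Col6a6, which lie side by side on chromosome 9, were not tested. Col6a6 had 35, 107 and 82 reads in controls and 0, 3 and 19 in unloaded kidneys, but in FPKM HU3 (0.306) lay above GC1 (0.196), while Col6a4 and Col6a5 had at most 54 reads in a library.

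**Figure D4:**
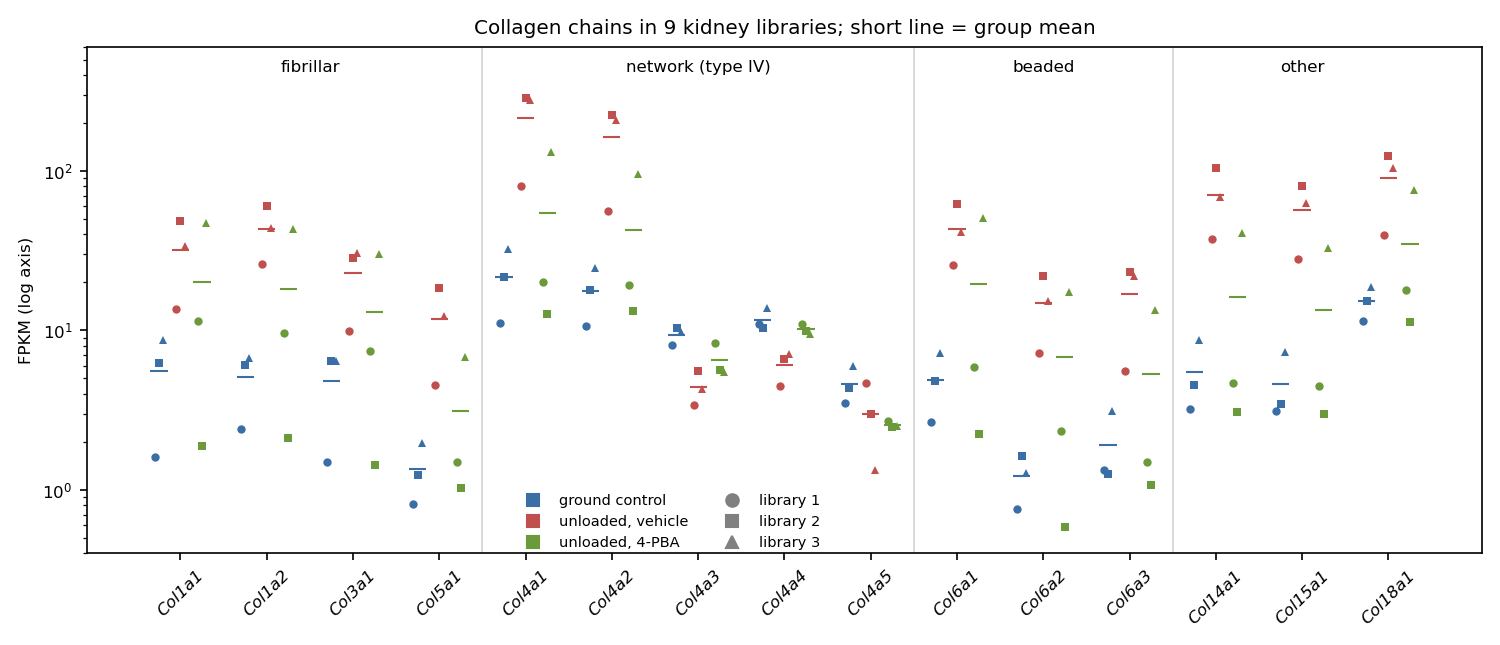
FPKM (log axis) of 15 collagen chains in each of the 9 libraries, in 3 columns per chain for ground control, unloaded and unloaded with 4-PBA; the short line is the group mean (n = 3). The unloaded points lie above the control points for every chain shown except Col4a3 and Col4a4, which lie below, and Col4a5, where they overlap; PBA3, the 4-PBA triangle, is the highest 4-PBA point of every chain except Col4a3, Col4a4 and Col4a5.

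The 2 largest differences of all tested chains were in the other classes. Col14a1 belongs to the fibril-associated collagens with interrupted triple helices, which sit on the surface of fibrils. Col14a1 (ENSMUSG00000022371, chromosome 15, 55307750 to 55520803) measured 3.22, 4.58 and 8.65 FPKM in controls, 37.4, 105 and 68.7 FPKM in unloaded kidneys and 4.66, 3.09 and 41.1 FPKM with 4-PBA. The lowest unloaded library was well above the highest control, and PBA3 lay just above HU1. Col14a1 rose with unloading by 3.43 ± 0.79 (limma adjusted p = 0.0287), a ratio of means of 12.9.

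The multiplexins Col15a1 and Col18a1 encode basement-membrane collagens that carry glycosaminoglycan chains, and the end of the Col18a1 product is released as endostatin. Col15a1 (ENSMUSG00000028339, chromosome 4, 47208161 to 47313167) measured 3.12, 3.47 and 7.31 FPKM in controls, 28.2, 81.1 and 62.6 FPKM in unloaded kidneys and 4.49, 2.98 and 32.7 FPKM with 4-PBA. It had the same pattern as Col14a1, with PBA3 just above HU1, and rose by 3.32 ± 0.74 (limma adjusted p = 0.0271). Col18a1 (ENSMUSG00000001435, chromosome 10, 77052178 to 77166548) measured 11.5, 15.3 and 18.8 FPKM in controls, 39.5, 125 and 105 FPKM in unloaded kidneys and 17.9, 11.3 and 75.5 FPKM with 4-PBA. Its unloaded libraries did not overlap the controls, and the difference of 2.36 ± 0.66 was just outside the threshold (limma adjusted p = 0.0505).

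The other chains of these classes were lower. Col16a1, another fibril-associated chain, had 1.28, 1.46 and 4.15 FPKM in controls and 4.42, 13.7 and 7.69 FPKM in unloaded kidneys (difference 1.53 ± 0.60, limma adjusted p = 0.126), with GC3 just under HU1. Col12a1 had 0 to 3.15 FPKM over all libraries and was not tested. Col7a1, of the anchoring fibrils of skin, had 0.183 to 1.79 FPKM (0.06 ± 0.41), and Col26a1 0.281 to 1.53 FPKM (0.20 ± 0.37). The 4 transmembrane chains Col13a1, Col17a1, Col23a1 and Col25a1 did not pass the filter, and Col23a1 was the highest of them, at up to 2.96 FPKM in PBA3. Col9a1 had no read in any library, which with a floor of 3 reads sets only an upper limit.

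Between unloaded kidneys with 4-PBA and with vehicle, 0 of 22 chains passed, where 2.69% of all tested genes did. At an unadjusted p under 0.05 there were 11 of 22 in limma (20.1% of all tested genes), and voom on recovered reads called 2, both lower (2.54% of all tested genes were). The median difference was -1.31, against 0.02 over all tested genes, and 3 of 22 were positive. The chains that rose with unloading gave -2.73 ± 0.79 for Col14a1 (limma adjusted p = 0.102), -2.57 ± 0.74 for Col15a1 (limma adjusted p = 0.102), -2.49 ± 0.83 for Col4a1 (limma adjusted p = 0.143), -2.20 ± 0.75 for Col4a2 (limma adjusted p = 0.151) and -1.73 ± 0.57 for Col5a1 (limma adjusted p = 0.143). The differences of Col6a1, Col1a2, Col6a3, Col6a2, Col18a1, Col3a1 and Col1a1 were -1.98 to -1.29, with limma adjusted p of 0.203 to 0.468. These values share the unloaded libraries with the comparison above, so they are not a separate measurement of the same libraries. Without overlap, Col4a4 was higher with 4-PBA (10.1% of all tested genes were) and Col5a2 lower (10.2%).

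One library decided this comparison. Without PBA3, limma called 11 of the 22 chains, all lower with 4-PBA, and the median was -2.27. Over all tested genes the share called lower was then 5.13%, against 1.53% with all libraries. They were Col14a1, Col15a1, Col4a1, Col6a1, Col4a2, Col1a2, Col6a3, Col6a2, Col18a1, Col5a1 and Col16a1. Col14a1 then gave -3.77 ± 0.48 (limma adjusted p = 0.00356), Col15a1 -3.51 ± 0.48 (limma adjusted p = 0.00393) and Col4a1 -3.48 ± 0.61 (limma adjusted p = 0.0109). PBA3 had 67.1% mitochondrial reads, against 15.2% and 13.7% in PBA1 and PBA2, and its part in the result beyond this was not tested. Scaling to equal total reads moved the median of all genes to 0.71 and that of the 22 chains to -0.51.

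Against the ground controls, 4-PBA after unloading gave 0 of 22 chains called by limma and 0 at an unadjusted p under 0.05 (1.31% of all tested genes), where 0% of all 12642 genes were called and voom called 0. The median difference was 0.58, against 0 over all tested genes, and 17 of 22 were positive. The largest were Col1a1 at 1.08 ± 0.93, Col6a2 at 1.07 ± 0.77 and Col1a2 at 0.99 ± 0.81 (limma adjusted p = 1 for each). Without overlap, Col4a5 was lower with 4-PBA (3.63% of all tested genes were) and no chain higher (4.37%). Without PBA3 the median of the 22 was -0.21 and 3 were positive, and 9 of the 15 named tested chains changed sign, among them Col4a1 to -0.31 and Col14a1 to -0.34, with no call. Standard errors of the 22 differences ran from 0.24 to 1.04 on the log2 scale, so a missed threshold does not show that the levels were alike.

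Collagen chains are modified, folded, trimmed and cross-linked by other proteins, and 27 of a list of 33 such genes were tested. Between unloaded and control kidneys 4 rose (5.32% of all tested genes did) and none fell, the median difference was 0.85 and 23 of 27 were positive. Loxl2, a lysyl oxidase-like enzyme that cross-links collagen, measured 0.475, 1.23 and 2.23 FPKM in controls and 6.26, 9.87 and 7.69 FPKM in unloaded kidneys (2.00 ± 0.52, limma adjusted p = 0.041). Pxdn, the peroxidase that forms the sulfilimine bonds between type IV networks, measured 1.54, 2.26 and 2.55 FPKM in controls and 5.57, 13.8 and 13.9 FPKM in unloaded kidneys (1.87 ± 0.48, limma adjusted p = 0.0384). Plod1, which hydroxylates lysines in the chains, measured 2.55, 3.97 and 4.12 FPKM in controls and 9.85, 17.6 and 14 FPKM in unloaded kidneys (1.69 ± 0.37, limma adjusted p = 0.025). In each of these 3 genes all unloaded libraries lay above all controls. The fourth, Colgalt1, which adds galactose to hydroxylysine, rose by 1.34 (limma adjusted p = 0.0157). Loxl1 (2.32, adjusted p = 0.0683), P3h3 (1.99, adjusted p = 0.0587) and Sparc (1.80, adjusted p = 0.0735), a collagen-binding matrix protein, did not pass in limma. P4hb, a subunit of the prolyl hydroxylase that is also a general disulfide isomerase, lay the other way without overlap, at 162, 193 and 125 FPKM in controls and 89.9, 72.3 and 62.4 FPKM in unloaded kidneys (-1.08 ± 0.36, limma adjusted p = 0.0804), and was named after its values were seen.

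Of 10 collagen receptor genes 6 were tested, and 4 rose in unloaded kidneys, where 5.32% of all tested genes did. Mrc2, the receptor that takes collagen up for breakdown, measured 1.82, 2.66 and 4.2 FPKM in controls and 11.4, 49.4 and 46.6 FPKM in unloaded kidneys (3.04 ± 0.80, limma adjusted p = 0.0421). Itga1 (1.82 ± 0.35, limma adjusted p = 0.0177) and Itgb1 (2.10 ± 0.46, limma adjusted p = 0.0255) encode the 2 subunits of a collagen-binding integrin, and Ddr2 (1.88 ± 0.42, limma adjusted p = 0.0268) a receptor kinase for fibrillar collagen. Ddr1, the kinase of epithelia, measured 8.44, 10.1 and 8.00 FPKM in controls and 2.10, 6.80 and 6.36 FPKM in unloaded kidneys (-0.80 ± 0.52, limma adjusted p = 0.322), and Itga10 differed by -0.24 ± 0.44. With 4-PBA no gene of either list passed against unloaded kidneys (medians -0.57 and -1.29) or against controls (medians 0.26 and 0.50).

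Markers of other cell types moved in the same libraries. Summed fibroblast markers (8 genes) were 8.05 to 20.8 FPKM in controls and 79.5 to 104 FPKM in unloaded kidneys. With 4-PBA they were 29.1, 6.44 and 107 FPKM. Of the 6 tested, 2 rose with unloading, Pdgfra and Fbln1, where 5.32% of all tested genes did, while Pi16 differed by -0.08. Pericyte and mesangium markers (5 genes) summed to 19.3 to 28, 54.7 to 107 and 13.9 to 69.4 FPKM, and endothelial markers (6 genes) to 48.0 to 74.5, 101 to 204 and 53.0 to 116 FPKM. These sums did not stand for every gene of a list: Plvap alone gave 156, 87.0 and 82.3 FPKM of the endothelial sum in unloaded kidneys, while Pecam1 differed by 0.19 and Cdh5 by -0.18, and among the pericyte and mesangium markers Pdgfrb and Itga8 were higher but Rgs5 had 10.9 to 16.9 FPKM in controls and 6.19 to 16.6 FPKM in unloaded kidneys. Podocyte markers (5 genes) summed to 26.4 to 47.0 FPKM in controls, 10.5 to 15.4 FPKM in unloaded kidneys and 43.5, 26.4 and 10.8 FPKM with 4-PBA. Proximal tubule markers (6 genes) summed to 663 to 849 FPKM in controls and 47.1 to 141 FPKM in unloaded kidneys. With 4-PBA the sums were 746, 787 and 179.7 FPKM. Of these 6 genes, 4 fell with unloading, where 4.90% of all tested genes did. Smooth muscle markers (5 genes) summed to 26 to 63.6, 13.7 to 25.2 and 24.1 to 203 FPKM. Acta2 held most of this sum, and of the 4 genes tested none passed with unloading and 1, Actg2, had a positive difference (0.71). Urothelial markers (5 genes) summed to 1.21 to 17.5, 6.96 to 42.1 and 25.2 to 159 FPKM. PBA3 alone gave the 203 and 159 FPKM, above every unloaded library. Adipocyte markers (4 genes) summed to 51.4 FPKM in PBA3, 43.9 FPKM in GC2 and 0.324 to 7.38 FPKM in unloaded kidneys. In the fibroblast, pericyte, endothelial, podocyte and proximal tubule lists no gene was at 0 in all libraries of a group. The part of these cell types in the collagen differences was not tested.

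**Figure D5:**
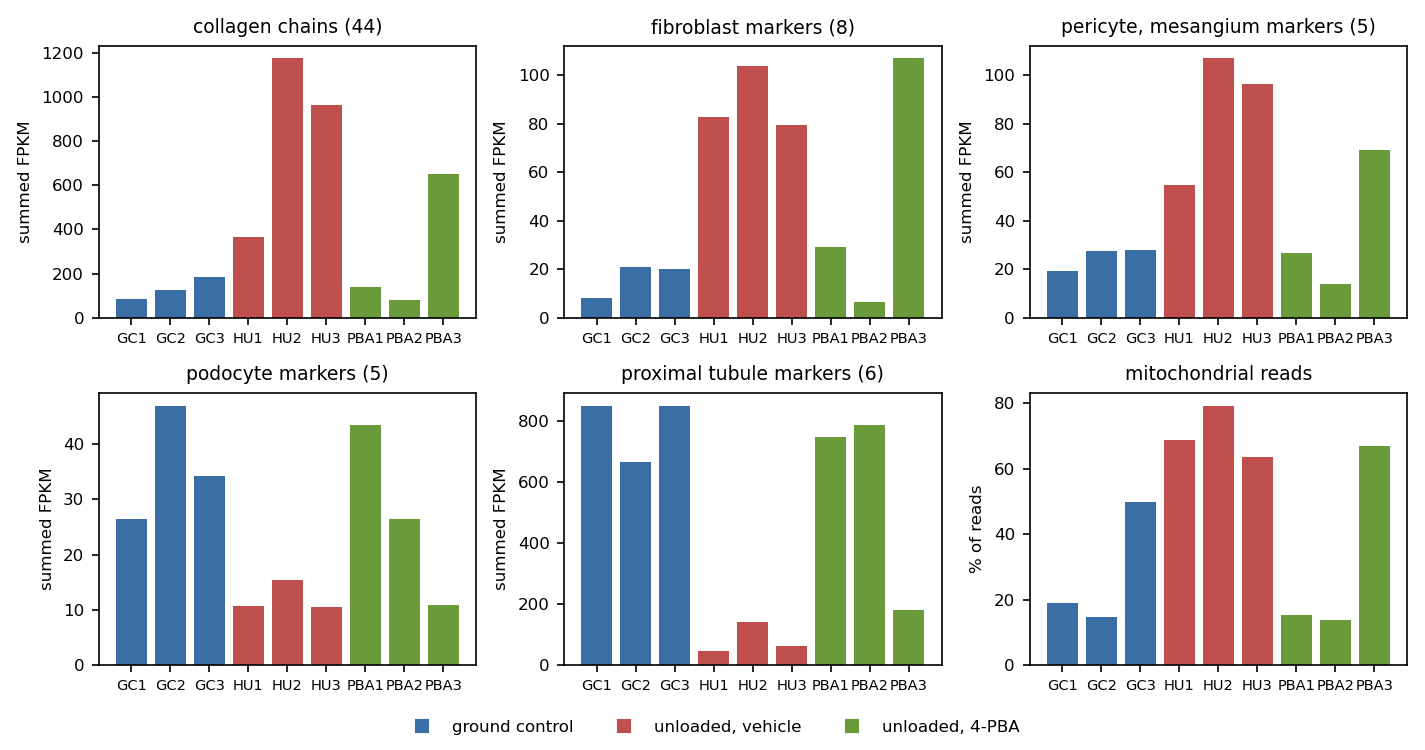
Summed FPKM of the 44 collagen chains and of fibroblast, pericyte and mesangium, podocyte and proximal tubule markers, and the percentage of mitochondrial reads, as bars from 0 for each of the 9 libraries coloured by group. PBA3 resembles the unloaded libraries in these 6 panels, with 649 FPKM of collagen, 107 FPKM of fibroblast markers and 67.1% mitochondrial reads. GC3 does so only in part, with 49.7%. Smooth muscle, urothelial and adipocyte markers, where PBA3 lay above every unloaded library, are not shown.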

How the data were processed

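Kidney messenger RNA of 9 samples was selected by poly-T beads and made into directional paired-end libraries, per the labels' protocols. Reads were processed with CASAVA, cutadapt and HISAT2 on mm10, per the submitters' processing notes; versions, read counter and strand setting are not stated there. The authors deposited 1 table of 54532 genes with 9 sample columns, whose values behave as FPKM: each, times the deposited gene length (other column used) and a constant of its library (not its total of reads), gave whole reads in 100% of values within 0.01. No sample column was left unused (0 of 9).

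FPKM were tested as log2(FPKM + 1) with limma 3.58.1 in R 4.3.3 (trended empirical Bayes), with all 9 libraries and 3 groups in 1 fit, for genes with at least 1 FPKM in at least 3 libraries, adjusted p under 0.05. Sums and shares were compared by exact two-sided permutation over 6 libraries in Python 3.11.15 with scipy 1.17.1. Coordinates are those of the deposited table, and 98.1% of its genes had the same ones in the GENCODE M21 annotation, from which exon overlaps were taken. The members and lists were chosen with earlier results of these data known. Chains given with all library values were those past the threshold, the 5 with the highest mean, 3 type I and III, 6 type IV, 3 type VI and both multiplexin chains, and the 3 with the largest difference between 4-PBA and control. From the assembly list the 6 with the largest difference were described, and Colgalt1 was named after its value was seen. Voom ran on the recovered reads. Alternatives were 2 other pseudocounts, 2 filters, 2 scalings, the 6 libraries alone, a replicate block, a mitochondrial covariate and each library left out. Not every same-numbered pair of samples had deviations correlated over 0.1, so the numbers were not taken as pairs. Scripts were tested on simulated data.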

Additional observations from a re-analysis of the deposited data

How the results depend on the processing

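The number of chains called between unloaded and control kidneys was 6 in the fit of all 9 libraries, with 1292 of all tested genes called. It was 0 without a filter (36 genes called in all) and 0 with the mitochondrial share as a covariate (99). It was 13 with the 6 libraries alone (1754), 12 with voom (1324) and 11 without both GC3 and PBA3 (1424), a pair chosen after seeing the data. As single libraries were left out it was 0 to 14, with 69 to 2360 genes called. Between 4-PBA and unloaded, 0 (340 genes called in all) became 2 with voom (449) and 11 without both GC3 and PBA3 (1118). With single libraries left out it was 0 to 11 (36 to 1320 genes called), the 11 without PBA3. Between 4-PBA and control it was 0 throughout, as it was over all genes. The 15 tested named chains kept their direction in all 20 alternatives for unloaded against control, but calls were lost: Col4a1 was called in 10 of 20, Col4a2 in 11, Col14a1 in 13, Col15a1 in 13, Col5a1 in 12 and Col4a3 in 7. With the mitochondrial covariate the median of the 22 chains was 0.23 for unloaded against control (12 positive) and 0.10 for 4-PBA against unloaded; Col4a1 differed from control by 1.14, Col1a1 by 0.22, Col3a1 by 0.25, Col6a1 by 0.6 and Col4a3 by -0.87. The cause of these changes was not tested. With the replicate block the counts were 7, 0 and 0, where 904, 137 and 0 of all 12642 tested genes were called. Same-numbered samples had correlations of deviations from -0.2 to 0.29, and no paired design is stated.

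Some values changed sign. For 4-PBA against unloaded, the mitochondrial covariate gave 0.65 for Col1a1, 0.31 for Col3a1, 0.09 for Col6a1 and 0.12 for Col4a5, and Col4a5 was also 0.63 with total reads, 0.04 with voom and -0.42 to 0.23 over single libraries left out, highest without HU1. The network share difference was 1.28 points over reads, 3.88 without both GC3 and PBA3, and -4.39 to 3.88 over single libraries left out, with 3.0 without HU3, 0.38 without PBA1 and 3.88 without PBA3. For 4-PBA against control, differences over single libraries left out, each lowest without PBA3, were -0.34 to 1.34 for Col14a1, -0.19 to 1.35 for Col15a1, -0.06 to 1.25 for Col18a1, -0.19 to 1.66 for Col3a1, -0.31 to 1.33 for Col4a1, -0.07 to 1.32 for Col4a2, -0.03 to 0.95 for Col5a1, -0.24 to 1.76 for Col6a1 and -0.29 to 1.10 for Col6a3, and leaving out both gave -0.01 for Col14a1 and -0.01 for Col6a3. The summed collagen difference was -0.258 to 1.25, lowest without PBA3, and the fibrillar share difference was -0.397 to 4.25 points, with -0.315 without GC1 and -0.397 without PBA1. With 3 libraries a group the exact test cannot go below 0.1, and chains with few reads could not be tested.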

Other observations

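Several chains too low to test had few reads in 1 group and more in another, and the unloaded libraries held 1568888 to 3037972 reads outside mitochondrial genes, against 5780141 to 12893802 in controls. Col19a1, a fibril-associated chain, had 5, 0 and 0 reads in controls and 66, 16 and 21 in unloaded kidneys, and 4, 13 and 18 with 4-PBA. Col17a1, of the hemidesmosomes of epithelia, had 0, 4 and 0 reads in controls, 38, 11 and 3 in unloaded kidneys and 5, 7 and 31 with 4-PBA, and controls and unloaded kidneys overlap in reads but not in FPKM. Col22a1, of tissue junctions, had 1, 0 and 0 reads in controls and 8, 43 and 22 in unloaded kidneys, and 1, 0 and 0 with 4-PBA. Col20a1 had 33, 20 and 67 reads in controls, none in the 3 unloaded libraries and 29, 34 and 23 with 4-PBA. At a floor of 3 reads HU2 could hold up to 0.187 FPKM of Col20a1, above the 0.162 FPKM of GC2, so a lack of overlap is not resolved. These counts are small, carry counting error and were given no test.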
